A study of Mus musculus with 2 samples.

Results

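The TCF/LEF factors are the DNA-binding proteins through which canonical Wnt signalling reaches its target genes. All 4 mouse members, Tcf7l2, Lef1, Tcf7 and Tcf7l1, were followed together with Axin2, a widely used transcriptional readout of the pathway. These 5 genes were chosen by name out of the 32285 genes of both count tables. The study profiled nuclei by Slide-tags, in which nuclei of a 20 µm frozen section are tagged with spatial barcodes and then sequenced by droplet single-nucleus RNA-seq (10x Chromium). The adult library came from hippocampus (C57BL/6J, a common inbred strain; a male aged 56 days), and the embryonic library from a sagittal section through the brain of a C57BL/6J embryo at embryonic day 14 (E14), bought as whole embryos. Neither animal carried a transgene or received a treatment, as far as the labels and methods state. Each tissue had 1 library, so no test between groups was made, nuclei are not replicates, and every interval below covers counting error only.

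After filtering, 1609 adult nuclei held 15346746 unique molecular identifiers (UMIs, each marking 1 captured molecule), with a median of 6607 per nucleus. The 9036 E14 nuclei held 58923882 UMIs, with a median of 4204. A single barcode was shared between the libraries. In the adult library the 5 genes had 2058 (Tcf7l2), 1584 (Lef1), 39 (Tcf7), 211 (Tcf7l1) and 282 (Axin2) UMIs, and at E14 they had 20522, 4645, 237, 4382 and 2172. Each of the 5 genes therefore had the 20 UMIs that were asked of a gene before a ratio was counted.

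As background, when Wnt ligands bind Frizzled receptors and their LRP co-receptors, beta-catenin escapes destruction, enters the nucleus and binds TCF/LEF proteins, which otherwise sit on DNA with Groucho (Tle) co-repressors. In the brain, Tcf7l2 is known as a marker and regulator of thalamic and habenular neurons and of oligodendrocyte differentiation, Lef1 as a marker of Wnt-responding endothelium and of the developing hippocampus, and Tcf7l1 mainly as a repressor in neural progenitors. Axin2 encodes a scaffold of the beta-catenin destruction complex and is itself induced by the pathway.

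The genes lie on mouse build GRCm38 (GENCODE vM21) as protein-coding genes. Tcf7l2 (ENSMUSG00000024985) spans chr19:55741820-55933654 on the plus strand, Lef1 (ENSMUSG00000027985) chr3:131110471-131224356 on the plus strand, Tcf7 (ENSMUSG00000000782) chr11:52252371-52283014 on the minus strand, Tcf7l1 (ENSMUSG00000055799) chr6:72626378-72789254 on the minus strand and Axin2 (ENSMUSG00000000142) chr11:108920349-108950783 on the plus strand. Reads from introns were counted too, so long genes such as Tcf7l2, at 191835 bases, offer more sequence to capture than Axin2, at 30435 bases. Levels are therefore compared within a gene and not between genes.

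The 250 bases upstream of the outermost RefSeq start site are shown for Tcf7l2 and Lef1, which were high together in adult thalamic nuclei, and for Axin2, the pathway's readout. They come from RefSeq (GRCm38.p6) at chr19:55741560-55741809, chr3:131110047-131110296 and chr11:108920099-108920348, all on the plus strand. Capitals mark CTTTG on either strand (CAAAG on the other), the core of the TCF/LEF recognition sequence.
Tcf7l2: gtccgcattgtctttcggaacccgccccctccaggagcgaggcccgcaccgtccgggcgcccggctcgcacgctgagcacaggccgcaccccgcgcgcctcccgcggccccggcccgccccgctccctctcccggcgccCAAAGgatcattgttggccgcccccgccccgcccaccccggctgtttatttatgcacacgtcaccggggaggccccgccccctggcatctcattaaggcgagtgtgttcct
Lef1: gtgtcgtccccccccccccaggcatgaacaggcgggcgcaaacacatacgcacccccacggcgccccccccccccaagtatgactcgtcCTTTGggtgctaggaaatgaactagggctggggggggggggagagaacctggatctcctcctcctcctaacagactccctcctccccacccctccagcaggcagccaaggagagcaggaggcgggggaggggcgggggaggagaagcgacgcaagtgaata
Axin2: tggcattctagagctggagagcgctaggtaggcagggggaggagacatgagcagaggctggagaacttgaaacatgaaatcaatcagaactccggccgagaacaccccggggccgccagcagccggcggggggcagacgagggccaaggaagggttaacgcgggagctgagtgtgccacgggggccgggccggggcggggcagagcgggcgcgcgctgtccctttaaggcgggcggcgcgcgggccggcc
Each of the Tcf7l2 and Lef1 stretches held 1 match, and the Axin2 stretch held none. The same 5 letters occurred in 53.9% of all 32851 RefSeq promoter windows (250 bases before to 50 after a start site), so a match is common. The longer forms CTTTGAT and CTTTGAA, which both contain CTTTG, occurred in 3.73% and 5.14% of windows on either strand, and in no window of the 5 genes. Among Nkd1, Nkd2, Rnf43, Sp5 and Tnfrsf19, feedback targets described further on, CTTTGAT was in the window of Sp5 and in 1 of the 2 windows of Tnfrsf19.

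Nuclei were put into classes by UMIs of other markers. A class required at least 3 of its markers in a nucleus and a lead of at least 2 over any other list, and no TCF/LEF or Wnt pathway gene was a marker. Such classes are ranges of marker counts, not proven cell types, and are called "-like" for that reason. Of the adult nuclei 22.6% stayed unassigned (363, holding 19.2% of Tcf7l2 and 20.0% of Lef1 UMIs). The assigned ones included 411 dentate granule-like and 214 pyramidal-like nuclei, the principal neurons of the labelled hippocampus, and also 93 thalamic-like, 249 oligodendrocyte-like, 144 astrocyte-like and 37 endothelial-like nuclei. All 8 markers of each of these lists, and 8 of the 10 pyramidal ones, were at least 2-fold higher in their class than in the other nuclei. No nucleus was assigned to the medial habenular, fibroblast or ependymal lists. At E14 73.4% of nuclei stayed unassigned, and these 6631 nuclei carried 59.6% of Tcf7l2 and 55.3% of Lef1 UMIs.

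More E14 nuclei lay close to a class limit. Of the 93 adult thalamic-like nuclei, 20 sat at the limit of 3 markers or a lead of 2 and 11 others lay just outside it, whereas of the 408 E14 thalamic-like nuclei 296 were at the limit and 450 lay just outside. The median adult thalamic-like nucleus held 7 of 8 thalamic markers and 1 dentate granule marker, the next most frequent list. At E14 the median was 4 of 8 thalamic markers and 1 radial glia marker, and 6 of the 8 markers reached 2-fold.

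In the adult library, Tcf7l2 was highest in thalamic-like nuclei and Lef1 in endothelial-like nuclei, among the 8 classes of at least 20 nuclei. Of the 5 genes, 2 were at least 2-fold higher in thalamic-like nuclei than in the other nuclei (Tcf7l2 and Lef1), against 9.16% of the 16282 genes tested, and 1 was at least 2-fold lower (Tcf7l1), against 26.4%.

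Tcf7l2 was at 1003 UMIs per 1000000 UMIs (CPM; 95% exact Poisson interval 950.3 to 1058) in the 93 adult thalamic-like nuclei, from 1344 UMIs. That was 19.7-fold the 51.0 CPM of the other nuclei (log2 ratio 4.30, exact interval 4.17 to 4.43). Among classes of at least 20 nuclei no other interval reached this level. Next were astrocyte-like nuclei at 250 CPM (214 to 290.3), microglia-like at 180 CPM (107 to 284), endothelial-like at 117 CPM (68.3 to 188) and oligodendrocyte-like at 57.3 CPM (42.8 to 75.2), with overlapping intervals between neighbours in this order. Dentate granule-like, inhibitory-like and pyramidal-like nuclei formed the floor, at 2.41 CPM (1.28 to 4.12), 2.03 CPM (0.0515 to 11.3) and 1.52 CPM (0.559 to 3.31), and their intervals overlapped.

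Lef1 was at 772 CPM (726 to 820.4) in adult thalamic-like nuclei, 19.7-fold the other nuclei (log2 ratio 4.30, 4.15 to 4.45). Only endothelial-like nuclei were higher, at 1373 CPM (1189 to 1578). The drop after these classes was steep. Astrocyte-like nuclei were at 13.2 CPM (6.01 to 25.0), microglia-like at 10.0 CPM from 1 UMI, oligodendrocyte-like at 2.21 CPM (0.267 to 7.97), dentate granule-like at 1.30 CPM (0.521 to 2.67) and pyramidal-like at 0.761 CPM (0.157 to 2.22), each overlapping its neighbour, and inhibitory-like nuclei had no UMI.

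At full depth most adult thalamic-like nuclei had UMIs of both genes. Of the 93 nuclei, 66 had UMIs of both genes, 17 of Tcf7l2 only, 1 of Lef1 only and 9 of neither. The level in single nuclei ranged from 0 to 79.2 Tcf7l2 UMIs per 10000, with a median of 9.19, and from 0 to 19.7 Lef1 UMIs per 10000, with a median of 5.23. With each nucleus thinned to 1000 UMIs, which left out 12 shallower nuclei, 56.8% of 81 nuclei had a Tcf7l2 UMI (95% exact binomial interval 45.3% to 67.8%) and 40.7% a Lef1 UMI (29.9% to 52.2%). At that depth 16 of the 81 had both, 30 Tcf7l2 only, 17 Lef1 only and 18 neither. Dentate granule-like nuclei, which had low levels of both genes in these data, are given for comparison. At the same depth 0 of 407 had a Tcf7l2 UMI and 0.491% had a Lef1 UMI. For the count of 0 a limit of 3 nuclei was taken, or 0.737%, which is tighter than an exact binomial limit. Without thinning the shares were 89.2% and 72.0% in thalamic-like nuclei at a median of 12540 UMIs, against 2.68% and 1.46% in dentate granule-like nuclei at 11251 UMIs.

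**Figure D1:**
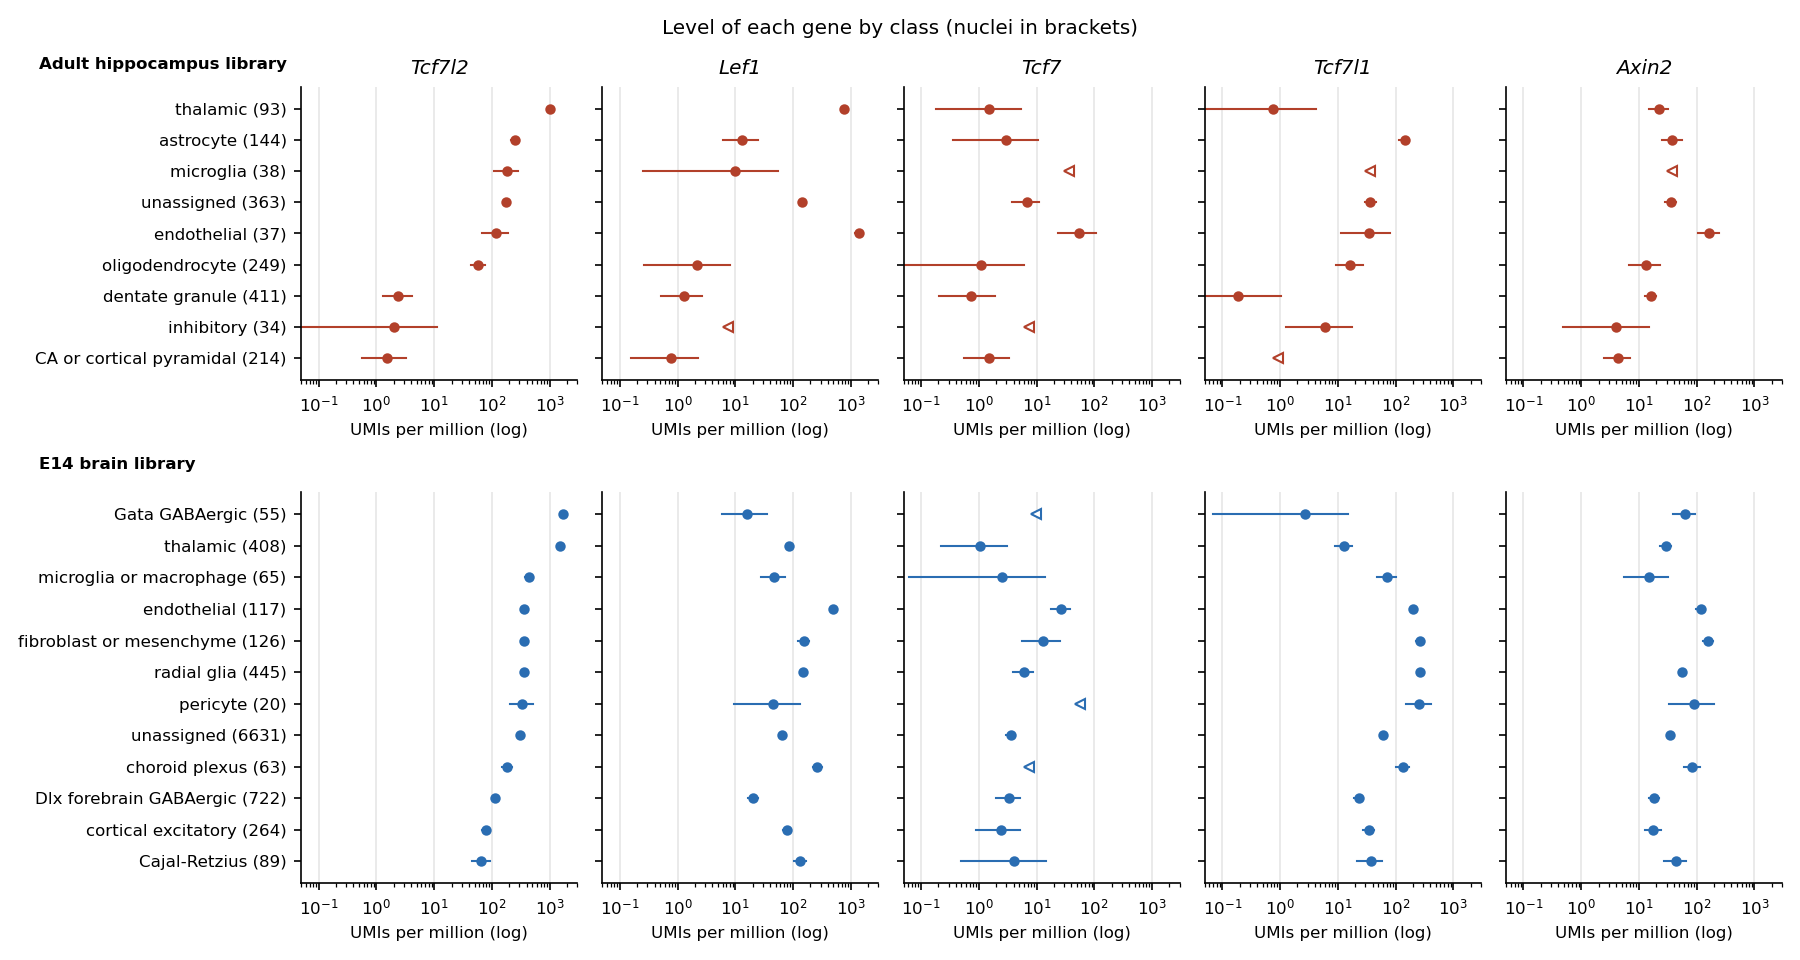
UMIs per 1000000 (log axis) of the 5 genes in each class of at least 20 nuclei, adult library above and E14 library below, with exact Poisson 95% intervals; open arrowheads mark the upper limit of classes without a UMI. Tcf7l2 was at 1003 in adult and 1515 in E14 thalamic nuclei, while Lef1 was highest in endothelial nuclei at both ages (1373 and 497).

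The adult thalamic-like nuclei differed in Malat1, a nuclear RNA whose share is low in droplets with little nuclear content. The 62 nuclei with at least 1.5% Malat1 held Tcf7l2 at 979 CPM (925 to 1035) and Lef1 at 799.5 CPM (751 to 850). The 31 nuclei with less Malat1 were shallow, with a median of 1304 against 18651 UMIs. In them Tcf7l2 was at 1420 CPM (1162 to 1720) and Lef1 at 298 CPM (187 to 451). Lef1 was thus lower and Tcf7l2 higher in the Malat1-poor droplets, with intervals that did not overlap for either gene. Thinned to 1000 UMIs, 57.9% and 56.5% of Malat1-poor and Malat1-rich nuclei had a Tcf7l2 UMI, and 21.1% and 46.8% a Lef1 UMI. The part of nuclear content and depth in this difference was not tested.

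Tcf7l1 and Tcf7 were nearly absent from adult thalamic-like nuclei. Tcf7l1 had 1 UMI and Tcf7 had 2 UMIs in the whole class. Axin2 was at 22.4 CPM (15.1 to 32.0), 1.24-fold the other nuclei (log2 ratio 0.32, -0.28 to 0.87), so that its level was not separable from the rest of the library by counting error. Other feedback targets of the pathway were not high there either. Nkd1, which binds Dishevelled, was at 7.46 CPM against 10.9 CPM elsewhere. Znrf3, a ubiquitin ligase that removes Frizzled receptors, was at 105 CPM against 106 CPM. Rnf43 was at 11.2 CPM against 9.14 CPM, and Tnfrsf19 at 2.99 CPM against 51.1 CPM. Apcdd1, a membrane inhibitor of Wnt receptors, had no UMI against 24.2 CPM.

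At E14 the thalamic-like class again had high Tcf7l2, while Lef1 stood near the level of the whole library. The sign of the Lef1 difference changed with how nuclei were chosen: its log2 ratio was 0.13 with the gate used, -0.56 with a looser gate of 2 markers and 0.43 with clusters, where that of Tcf7l2 was 2.39, 1.83 and 3.15. Of the 5 genes, 1 (Tcf7l2) was at least 2-fold higher than in the other nuclei, against 3.89% of the 19984 genes tested, and 2 (Tcf7 and Tcf7l1) were at least 2-fold lower, against 17.3%.

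Tcf7l2 was at 1515 CPM (1470 to 1561) in the 408 E14 thalamic-like nuclei, 5.24-fold the 289 CPM of the other nuclei (log2 ratio 2.39, 2.34 to 2.44). Lef1 was at 86.1 CPM (75.7 to 97.6) against 78.5 CPM, a ratio of 1.10 (log2 ratio 0.13, -0.06 to 0.32). Tcf7l1 was at 12.7 CPM (8.87 to 17.5), the lowest of the classes of at least 20 nuclei other than the Gata GABAergic-like one. Axin2 was at 28.8 CPM (22.9 to 35.8), against 37.3 CPM in the other nuclei. Only Tcf7l2 therefore set these nuclei apart among the 5 genes in the upward direction.

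Among single E14 thalamic-like nuclei, Tcf7l2 ranged from 0 to 75.8 UMIs per 10000, with a median of 13.1, and Lef1 from 0 to 26.8, with a median of 0. Both genes were detected in 96 nuclei, Tcf7l2 alone in 196, Lef1 alone in 10 and neither in 106, at a median of 5707 UMIs. Thinned to 1000 UMIs, 21 of 404 had both, 213 Tcf7l2 only, 11 Lef1 only and 159 neither. At 1000 UMIs, 57.9% of 404 nuclei had a Tcf7l2 UMI (52.9% to 62.8%), and 7.92% a Lef1 UMI (5.48% to 11.0%). Cortical excitatory-like nuclei had 5.70% and 6.46% at that depth, so the Lef1 share of thalamic-like nuclei was within the interval of a class outside the thalamus.

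Gbx2, a homeobox gene of the developing thalamus and 1 of the 8 markers of the gate, divided the E14 class further. The 54 nuclei with a Gbx2 UMI held Tcf7l2 at 2352 CPM (2217 to 2493) and the 354 without one at 1344 CPM (1297 to 1391). Thinned shares were 85.2% and 53.7%. Lef1 was at 110 CPM (82.3 to 144) and 81.3 CPM (70.2 to 93.6), with overlapping intervals. Clusters built with the 5 genes kept out of the variable genes were examined too. A cluster of 535 nuclei, named thalamic-like with 6 markers, had Tcf7l2 at 2163 CPM (2113 to 2215) and in 97.2% of its nuclei, and Tcf7l2 was among its 5 leading genes, together with Rnf220 and Ntng1, an axon guidance ligand of thalamic neurons.

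**Figure D2:**
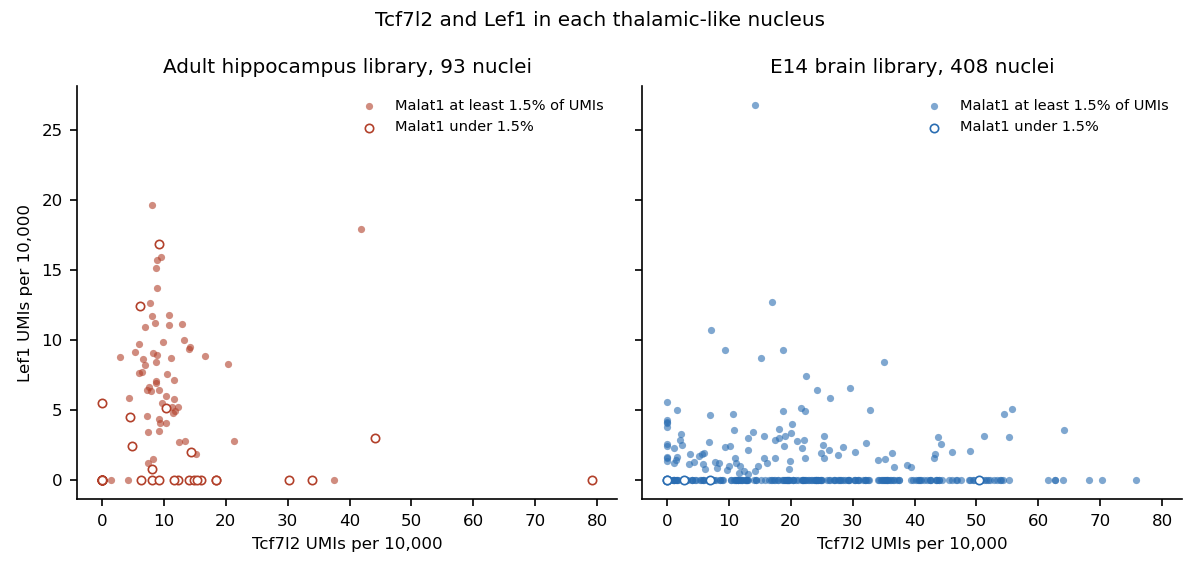
Lef1 against Tcf7l2 UMIs per 10000 UMIs in every thalamic-like nucleus, 93 adult (left) and 408 E14 (right); open circles have under 1.5% Malat1. At full depth adult nuclei gather where both genes are detected (66 of 93), whereas the largest group of E14 nuclei lies on the Tcf7l2 axis (196 of 408 with Tcf7l2 alone). The adult nuclei were deeper, and at 1000 UMIs both genes were found in 16 of 81 adult and 21 of 404 E14 nuclei. At that depth nuclei with Tcf7l2 alone were the largest group at both ages (30 of 81 and 213 of 404).

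Set side by side, the adult thalamic-like class had Lef1 at 772 CPM and the E14 class at 86.1 CPM, a ratio of 8.96 (log2 3.16, 2.96 to 3.37). Tcf7l2 went the other way, with 1003 and 1515 CPM, a ratio of 0.662 (log2 -0.59, -0.68 to -0.51). Of all 12613 genes with at least 20 UMIs in both classes together, 15.3% were at least 2-fold higher in the adult, as Lef1 was. At E14 23.6% were at least 2-fold higher, as Tcf7l1 was (log2 ratio -4.08, -9.43 to -1.51). Tcf7l1 had 1 adult and 36 E14 UMIs, so it reached the minimum of 20 only through the class where it was high. Axin2, at 22.4 and 28.8 CPM, had an interval of its log2 ratio from -1.02 to 0.25. The libraries differ in animal, dissection, age and software version, which cannot be told apart here. The thalamic marker lists differed as well. Slc17a6, Rora and Ntng1 were on both lists, while Prkcd, for example, was on the adult list only and Gbx2 on the E14 list only. At the gate limit were 296 of the 408 E14 nuclei, against 20 of the 93 adult ones. The part of these differences in the ratios was not tested.

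A further E14 class had more Tcf7l2 than the gated thalamic one, with intervals that did not overlap. It had less than the thalamic-like cluster and than the thalamic-like nuclei with a Gbx2 UMI (2352 CPM). Of its 55 nuclei 39 sat at the gate limit, and 58 others lay just outside it. The 55 Gata GABAergic-like nuclei, chosen by Gata2, Gata3, Tal1, Tal2, Sox14, Otx2, Lhx1 and Gad2, had Tcf7l2 at 1720 CPM (1589 to 1859), 5.06-fold the other nuclei (log2 ratio 2.34, 2.22 to 2.45). Tal2 had no UMI in them. Lef1, by contrast, was at 16.2 CPM (5.94 to 35.2), from 6 UMIs of which 4 were in 1 nucleus, and Tcf7l1 had 1 UMI. Of the 5 genes, 1 was at least 2-fold higher, against 6.61% of genes, and 3 at least 2-fold lower, against 36.9%. One of these, Tcf7, had no UMI, and its upper limit of 9.94 CPM lay above the 4.05 CPM of the other nuclei, so that the call cannot be told from counting error. Axin2 was at 62.0 CPM (39.3 to 93.0), 1.69-fold the other nuclei. Forebrain GABAergic-like nuclei, marked by Dlx genes, had Tcf7l2 at 114 CPM (105 to 123) and Lef1 at 20.5 CPM (16.9 to 24.7), both below the library level.

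Endothelial-like nuclei had the broadest set of the 5 genes at either age: 4 of 5 (Lef1, Tcf7, Tcf7l1 and Axin2) were at least 2-fold higher than in the other nuclei, against 23.9% of genes in the adult and 15.9% at E14. Tcf7l2 was the exception at both ages.

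In the 37 adult endothelial-like nuclei, Lef1 was at 1373 CPM, 15.1-fold the other nuclei (log2 ratio 3.91, 3.69 to 4.13). Single nuclei ranged from 0 to 74.5 Lef1 UMIs per 10000, with a median of 10.7. At 1000 UMIs 72.7% of 33 nuclei had a Lef1 UMI (54.5% to 86.7%). The list next most present in these nuclei was the thalamic one, the other class high in Lef1, with a median of 3 of 8 markers. Its 8 markers summed to 1429 CPM here, against 11212 CPM in thalamic-like nuclei and 1169 CPM in the remaining nuclei. Plcb4 was the most abundant, at 531 CPM against 667 CPM in thalamic-like and 50.4 CPM in the remaining nuclei. Plekhg1 (255 CPM) and Synpo2 (75.9 CPM) were also above their levels in the remaining nuclei, of 83.9 and 18.8 CPM. Rora, at 524 CPM, and Ntng1, at 13.8 CPM, were below theirs, of 671 and 326 CPM, Prkcd had 3 UMIs, Slc17a6 had 1 and Tnnt1 none. The part of thalamic content in the Lef1 level was not tested. Axin2 was at 166 CPM (106 to 246), 9.76-fold the other nuclei (log2 ratio 3.29, 2.62 to 3.89), and Tcf7 at 55.2 CPM (23.8 to 109) from 8 UMIs, the only adult class other than the unassigned nuclei with more than 6 Tcf7 UMIs. The Tcf7l1 value of 34.5 CPM rests on 5 UMIs, and its log2 interval (-0.29 to 2.59) included 0. Tcf7l2, at 117 CPM, was 0.874-fold the other nuclei (log2 interval -0.98 to 0.49).

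In the 117 E14 endothelial-like nuclei, Lef1 was at 497 CPM (457 to 540), 7.03-fold the other nuclei (log2 ratio 2.81, 2.68 to 2.94), and again the highest of all classes. Axin2 was at 118 CPM (99.2 to 140), 3.36-fold, Tcf7 at 26.7 CPM (18.0 to 38.1), 7.46-fold, and Tcf7l1 at 205 CPM (179 to 233), 2.85-fold the other nuclei. Tcf7l2 was at 366 CPM, 1.05-fold. At 1000 UMIs 36.7% of 109 nuclei had a Lef1 UMI (27.7% to 46.5%). Between the ages, the Lef1 level was 2.76 times higher in the adult class (log2 1.47, 1.23 to 1.70), and 15.0% of 9733 genes were at least 2-fold higher there. Tcf7l2 (0.321-fold, log2 -1.64, -2.44 to -0.94) and Tcf7l1 (0.168-fold, log2 -2.57, -4.21 to -1.33) were higher at E14, where 29.6% of genes were at least 2-fold higher. Tcf7l2 had 17 adult and 411 E14 UMIs, and Tcf7l1 had 5 adult and 230 E14 UMIs. Both genes thus reached the minimum of UMIs asked of a gene only through the class where they were high. The Axin2 interval, from -0.21 to 1.12, included 0.

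Some Wnt receptors and feedback targets were also high in endothelial-like nuclei. The pathway list holds 80 genes in 6 roles: 24 ligands, 18 receptors and co-receptors, 11 secreted inhibitors, 11 cytoplasmic transducers, 9 nuclear partners and 7 feedback targets. In adult endothelial-like nuclei 17 of the 57 list genes with at least 20 UMIs were at least 2-fold higher and 20 lower, or 29.8% and 35.1% of the list, against 23.9% and 39.0% of all genes, with a median log2 ratio of 0.0047 over the list and -0.23 over all genes. Few of the lower calls can be told from counting error in a class this small. Of the 20 lower genes 14 had no UMI, and the interval of the log2 ratio lay below 0 for only 3 of the 20. It lay above 0 for 12 of the 17 higher genes, and 2 of the other higher ones, Fzd1 and Sfrp1, rest on 1 UMI each. The feedback targets were higher in 3 of 5: Apcdd1 at 497 CPM (389 to 626) against 17.6 CPM, a 28.3-fold ratio, Nkd1 at 228 CPM against 8.49 CPM, 26.8-fold, and Tnfrsf19 at 117 CPM against 46.2 CPM, 2.54-fold. Rnf43, a relative of Znrf3, had no UMI there, which at this depth did not separate it from the 9.41 CPM of the other nuclei. Of the receptors, 7 of 14 were higher and 5 lower, among them Lgr4, with 1 UMI and a log2 interval of -8.31 to -0.52. The higher ones were led by Fzd6 (359 CPM, 39.8-fold), Fzd4 (62.1 CPM from 9 UMIs, 23.6-fold) and Lrp5 (48.3 CPM from 7 UMIs, 9.18-fold). Notum, an enzyme that inactivates Wnt ligands, was 19.6-fold higher at 75.9 CPM, and Ctnnb1, which encodes beta-catenin, 5.13-fold higher at 462 CPM.

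At E14 the endothelial-like class had 12 of 70 list genes at least 2-fold higher and 17 lower (median log2 ratio -0.15, against 0.0095 over all genes). These 17.1% and 24.3% of the list were close to the 15.9% and 24.4% of all genes, and the interval excluded 0 for 11 of the 12 and 11 of the 17. The feedback targets were higher in 4 of 7, led by Apcdd1 (436 CPM, 14.4-fold), Nkd1 (187 CPM, 5.66-fold) and Tnfrsf19 (213 CPM, 4.49-fold). The receptors Fzd6 (149 CPM, 19.1-fold) and Fzd4 (20.5 CPM, 17.7-fold) and Adgra2, a co-receptor for Wnt7 ligands (79.3 CPM, 10.4-fold), led the 5 of 18 receptors that were higher. Dkk2, a secreted antagonist, was 9.85-fold higher at 50.8 CPM. In endothelial-like nuclei of both libraries 8 list genes were past 2-fold, of the 17 higher in the adult and the 12 higher at E14: Apcdd1, Nkd1, Tnfrsf19, Fzd6, Fzd4, Lrp5, Adgra2 and Notum. They were 14.5% of the 55 list genes tested in both, against 8.56% of all 15934 genes tested in both.

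**Figure D3:**
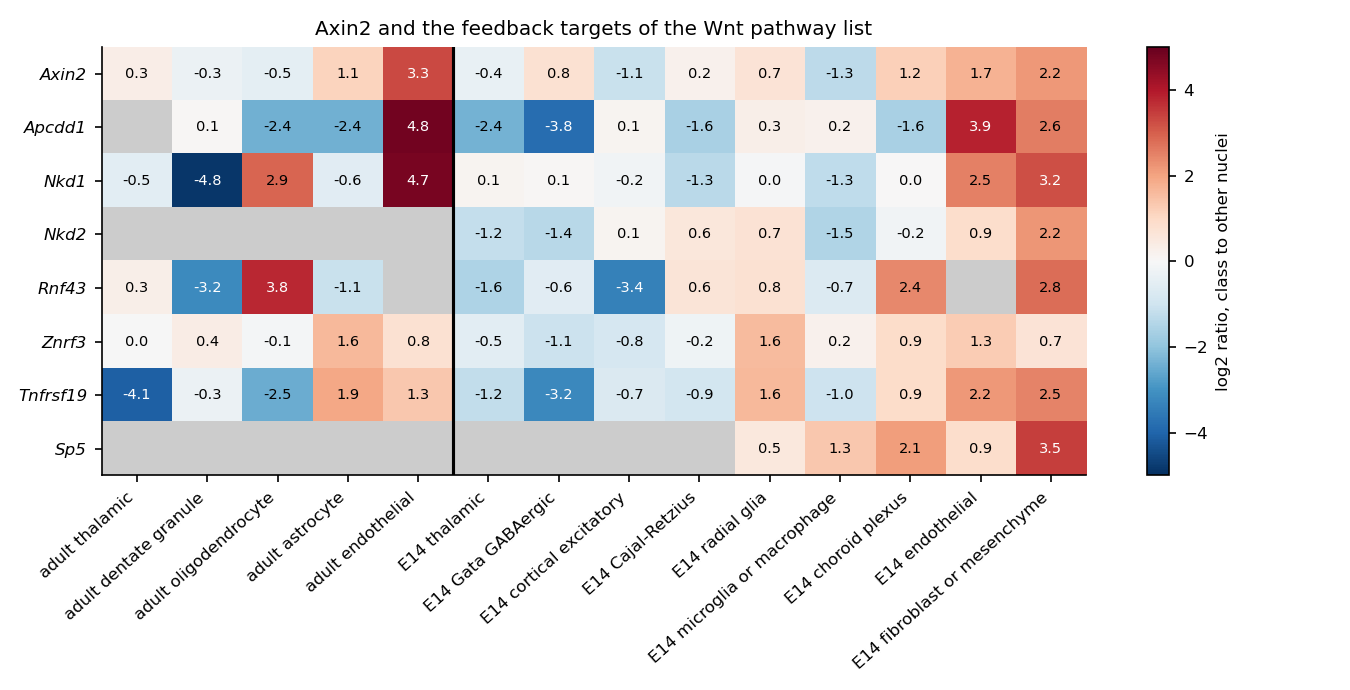
Log2 ratio of the level in each class to that of the other nuclei of its library, for Axin2 and the 7 feedback targets of the pathway list, with 5 adult and 9 E14 classes divided by a line; grey cells had no UMI in the class or under 20 UMIs in the library. Apcdd1 reached 4.82 and Nkd1 4.75 in adult endothelial nuclei, and the E14 fibroblast or mesenchyme column is above 0 in every row.

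In adult thalamic-like nuclei 8 of 57 list genes were at least 2-fold higher and 18 lower, or 14% and 31.6% of the list, against 9.16% and 26.4% of all genes (median log2 ratio -0.24, against -0.22 over all genes), and none of the 5 feedback targets was higher. Among 14 ligands 3 were higher and 5 lower, and among 14 receptors 4 were higher and 5 lower. The interval of the log2 ratio excluded 0 for all 8 higher and 16 of the 18 lower list genes. Those higher were led by the ligands Wnt9b (17.9 CPM, 31.4-fold), Wnt3 (38.8 CPM, 16.5-fold) and Wnt4 (54.5 CPM, 7.48-fold). The leading receptors were Lgr5, which binds R-spondins (51.5 CPM, 21.2-fold), Fzd8 (8.96 CPM, 5.02-fold) and Tspan12 (38.1 CPM, 3.78-fold). Among secreted inhibitors Notum was higher (12.7 CPM, 3.35-fold). Of the 32 Wnt9b UMIs in the library 24 were in these nuclei, so Wnt9b reached the minimum of 20 UMIs only through the class where it was high and had to differ. At E14, 3 of 70 list genes were higher, or 4.29% against 3.89% of all genes, and 26 lower, or 37.1% against 17.3% (median log2 ratio -0.43, against -0.13 over all genes). Those higher were Wnt3 (12.3 CPM, 3.32-fold), Wif1, a secreted Wnt-binding inhibitor (13.7 CPM, 7.61-fold), and Lgr6, which rests on 4 UMIs. Wnt3 was the gene past 2-fold at both ages. Of the E14 feedback targets, 0 of 7 were higher and 5 lower, of which Sp5 had no UMI and could not be told from counting error. Over the list the interval excluded 0 for 2 of the 3 higher and 20 of the 26 lower genes.

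Astrocyte-like nuclei of the adult were set apart by Tcf7l1. It was at 143 CPM (116 to 175) in the 144 nuclei, 18.6-fold the other nuclei (log2 ratio 4.22, 3.81 to 4.62), and no other class of at least 20 nuclei had an interval that reached it. Axin2 was at 38.0 CPM (24.8 to 55.7), 2.18-fold (log2 ratio 1.12, 0.48 to 1.71). These were 2 genes of 5 at least 2-fold higher, against 17.4% of genes, while 1 (Lef1) was at least 2-fold lower, against 25.4%. Tcf7l2, at 250 CPM, was 1.94-fold the other nuclei (log2 ratio 0.96, 0.72 to 1.18), just under the 2-fold limit. With a limit of 1% mitochondrial UMIs in place of 5%, Tcf7l2 passed 2-fold as well. At 1000 UMIs 16.7% of 120 nuclei had a Tcf7l2 UMI (10.5% to 24.6%) and 14.2% a Tcf7l1 UMI (8.47% to 21.7%).

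The adult astrocyte-like nuclei were not uniform. Clustering gave 3 astrocyte-like clusters. The smallest, of 21 nuclei, whose leading genes included Slc6a11, a GABA transporter, had Tcf7l2 at 769 CPM (613 to 952) and Tcf7l1 at 348 CPM (246 to 478). The largest, of 102 nuclei with Rgs20, Rmst and Gli3 among its leading genes, had 181 CPM (153 to 212) and 103 CPM (82.4 to 128). The remaining 79 nuclei, at 1150 UMIs and 0.395% Malat1, had Tcf7l2 at 37.2 CPM from 5 UMIs. Splitting the gated class by a UMI of Agt or Slc6a11 gave 277 CPM (233 to 326) of Tcf7l2 in 81 nuclei with one and 165 CPM (109 to 240.0) in 63 without, with overlapping intervals, and the former were deeper (5882 against 2345 UMIs).

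Receptors were the largest group of pathway genes high in astrocyte-like nuclei: 8 of 14 were at least 2-fold higher, led by Fzd2 (59.9 CPM, 39.9-fold), Lgr6 (61.4 CPM, 16.7-fold) and Tspan12 (51.2 CPM, 4.78-fold). Among ligands, Ndp, which encodes Norrin (29.2 CPM, 21.4-fold), Wnt7a (32.2 CPM, 20.5-fold) and Wnt7b (57.0 CPM, 5.13-fold) were the leading 3 of 4 higher. Tnfrsf19 (158 CPM, 3.78-fold) and Znrf3 (297 CPM, 3.06-fold) were the feedback targets higher there, against 2 that were lower, Apcdd1 (4.38 CPM, 0.191-fold) and Rnf43 (4.38 CPM, 0.459-fold, from 3 UMIs and with an interval that included 0). Tle4, a Groucho co-repressor and the nuclear partner with the most UMIs in both libraries, was 2.36-fold higher at 352 CPM. In all, 17 of 57 list genes were higher (29.8%, against 17.4% of all genes) and 9 lower (15.8%, against 25.4%; median log2 ratio 0.23, against -0.07 over all genes). The interval excluded 0 for 14 of the 17 but for only 1 of the 9, Apcdd1, and 3 of the 9 had no UMI. Sfrp1, among the 17, had 7 of its 21 UMIs in these nuclei and so reached the minimum of 20 only through them.

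Oligodendrocyte-like nuclei had little Tcf7l2 for the most part. The 249 gated nuclei held it at 57.3 CPM, 0.413-fold the other nuclei (log2 ratio -1.28, -1.70 to -0.88), in 16.9% of nuclei and never more than 3 UMIs in 1 nucleus. At 1000 UMIs the share was 5.51% (2.97% to 9.24%). None of the 5 genes was at least 2-fold higher, against 13.5% of genes, and 3 (Tcf7l2, Lef1 and Tcf7) were at least 2-fold lower, against 31.6%, where Tcf7 had 1 UMI and a log2 interval of -6.60 to 1.31 that included 0. The 5 feedback targets with at least 20 UMIs went both ways: Rnf43 at 72.8 CPM was 13.6-fold and Nkd1 at 57.3 CPM 7.53-fold the other nuclei, while Apcdd1 at 4.41 CPM was 0.190-fold and Tnfrsf19 at 8.82 CPM 0.179-fold. Over the pathway list, 7 of 57 genes were at least 2-fold higher (12.3%) and 22 lower (38.6%), with intervals that excluded 0 for all 7 and for 14 of the 22.

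A few nuclei of the lineage carried much of the Tcf7l2. The oligodendrocyte-like cluster, of 239 nuclei, had Tcf7l2 at 225 CPM (194 to 260.0), above the other nuclei by a log2 ratio of 0.81, opposite in sign to the gated class. In it, 5 nuclei with at least 5 of the 8 markers of newly formed oligodendrocytes (among them Enpp6, Gpr17 and Bcas1) held 134 of its 187 Tcf7l2 UMIs, at 2937 CPM (2461 to 3478). The counts in these nuclei were 64, 22, 20, 15 and 13 UMIs, or 91.6, 28.8, 22.1, 9.05 and 24.3 per 10000. Tcf7l1 was at 416 CPM (251 to 650.3) in the same nuclei. The 234 other nuclei of the cluster had Tcf7l2 at 67.6 CPM (50.6 to 88.4) and Tcf7l1 at 16.6 CPM (8.82 to 28.3). With a limit of 3 markers of both oligodendrocyte lists in place of this one, chosen after seeing the data, 51 nuclei of the library had Tcf7l2 at 471 CPM (420.3 to 526), and 231 oligodendrocyte-like nuclei with fewer newly formed markers at 55.3 CPM (40.0 to 74.5). The former were deeper, at a median of 7649 against 2842 UMIs, and had Lef1 at 94.5 CPM (72.6 to 121), from 63 UMIs in 8 nuclei, against 2.57 CPM, whereas the 5 nuclei had no Lef1 UMI. The part of depth and of other cells' RNA in these values was not tested. Of the 5 nuclei, the 2 with 20 and 13 Tcf7l2 UMIs also held 7 and 6 astrocyte markers and 4 and 3 thalamic markers, and the part of such mixed content in their Tcf7l2 was not tested. The other 3, among them the nucleus with 64 UMIs, had 0 to 2 astrocyte markers and 1 thalamic marker each. None of the 5 was among the highest doublet scores. The doublet scoring marked too few nuclei to have worked, so this cannot decide on mixed content.

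The gate itself placed 2 nuclei in the newly formed oligodendrocyte-like class, and they had 19 Tcf7l2 UMIs together (1758 CPM). The 19 precursor-like nuclei had Tcf7l2 at 215 CPM from 20 UMIs, in 42.1% of nuclei, and no Lef1 UMI.

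**Figure D4:**
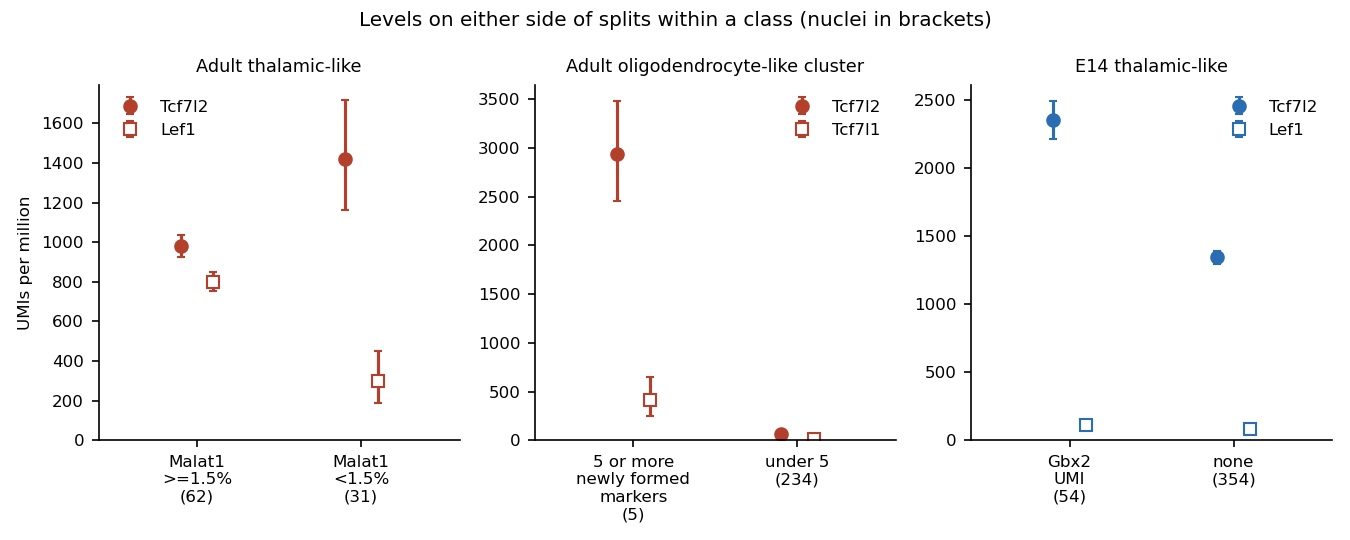
UMIs per 1000000 of 2 genes on each side of 3 splits within a class or cluster, with exact Poisson 95% intervals and the nuclei in brackets. Tcf7l2 was at 2937 in 5 nuclei with newly formed oligodendrocyte markers against 67.6 in the rest of their cluster.

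At E14 Tcf7l1 was high in progenitors and in several non-neural classes. It was at 263 CPM (248 to 279) in the 445 radial glia-like nuclei, 4.43-fold the other nuclei (log2 ratio 2.15, 2.05 to 2.25). Fibroblast or mesenchyme-like nuclei at 264 CPM (225 to 308) and pericyte-like nuclei at 258 CPM (150 to 413) did not differ from them beyond counting error. Endothelial-like nuclei were at 205 CPM and choroid plexus-like nuclei at 133 CPM (103 to 169.5), both above neurons. Cortical excitatory-like nuclei were at 34.4 CPM (27.5 to 42.5) and thalamic-like at 12.7 CPM.

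Radial glia-like nuclei also had Lef1 at 149 CPM (138 to 161), 2.04-fold the other nuclei (log2 ratio 1.03, 0.91 to 1.15), making 2 of the 5 genes at least 2-fold higher, against 9.71% of genes. Tcf7l2 was at 361 CPM, 1.04-fold, and Axin2 at 56.3 CPM (49.4 to 63.8), 1.59-fold. In these nuclei 26 of 70 pathway genes were at least 2-fold higher (37.1%, against 9.71% of all genes) and 5 lower (7.14%, against 14.3%; median log2 ratio 0.38, against 0.05 over all genes). The interval excluded 0 for 22 of the 26 and 2 of the 5. Those higher included 10 of 17 ligands, led by Rspo1 (32.2 CPM, 8.18-fold), Wnt8b (53.7 CPM, 6.90-fold) and Wnt3a (10.9 CPM, 6.13-fold), 9 of 18 receptors, led by Fzd8 (40.1 CPM, 5.21-fold), and the secreted inhibitor Sfrp1 (222 CPM, 4.10-fold).

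Within radial glia, Axin2 was higher in nuclei with a UMI of Lmx1a. The 43 such nuclei had Axin2 at 102 CPM (84.2 to 124), against 41.0 CPM (34.3 to 48.6) in the 402 nuclei without one, and Lef1 at 173 CPM (149 to 200.1) against 141 CPM (129 to 155), where the intervals overlapped. Tcf7l1 was lower in them, at 167 CPM (143 to 193) against 295 CPM (277 to 315), and so was Tcf7l2, at 244 CPM (215 to 276) against 399.7 CPM (378 to 422). The nuclei with Lmx1a were deeper, at a median of 19814 UMIs against 4987, so that the split also followed depth, whose part in the differences was not tested. Thinned to 1000 UMIs, 18.6% of them had an Axin2 UMI (8.39% to 33.4%), against 3.10% of the others (1.61% to 5.35%).

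The embryonic classes beside the ventricles and the meninges had high values as well. Choroid plexus-like nuclei had Lef1 at 262 CPM (219 to 311), 3.39-fold, and Axin2 at 83.9 CPM (60.2 to 114), 2.30-fold, with Rspo2 among their ligands (526 CPM, 7.31-fold). These were 2 of the 5 genes at least 2-fold higher, against 14.6% of genes, and 1 (Tcf7) was lower, against 24.5%, with no UMI and an upper limit of 7.55 CPM that lay above the 4.06 CPM of the other nuclei. Fibroblast or mesenchyme-like nuclei had the highest Axin2 of any E14 class, at 158 CPM (128 to 193), 4.44-fold the other nuclei, overlapping the interval of endothelial-like nuclei. There 3 of the 5 genes were at least 2-fold higher, against 17.5% of genes, together with 6 of 7 feedback targets, led by Sp5 (11.0-fold, from 6 UMIs), Nkd1 (310 CPM, 9.36-fold) and Rnf43 (26.1 CPM, 6.91-fold), and the ligands Wnt6, Wnt4 and Wnt9a. Other ligands and receptors went the opposite way, with 7 of 17 and 7 of 18 lower. Over the list 25 of 70 genes were higher (35.7%) and 17 lower (24.3%, against 26.5% of all genes), with intervals that excluded 0 for 21 and 7 of them.

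Cajal-Retzius-like nuclei, early neurons of the cortical margin, had Lef1 at 134 CPM (103 to 170), 1.71-fold, and Tcf7l2 at 65.8 CPM (45.0 to 92.9), the lowest of the E14 classes of at least 20 nuclei beside cortical excitatory-like nuclei at 79.2 CPM (68.5 to 91.0). None of the 5 genes was at least 2-fold higher, against 8.01% of genes, and 2 (Tcf7l2 and Tcf7l1) were at least 2-fold lower, against 30.1%. Rspo3, the ligand with the most UMIs in both libraries, was at 977 CPM, 12.4-fold, and Lgr5 at 57.6 CPM, 11.7-fold. Microglia or macrophage-like nuclei had Tcf7l2 at 438 CPM (376 to 507), after the Gata GABAergic-like and thalamic-like classes. The interval overlapped that of endothelial-like nuclei, the next class (331.5 to 403.2), so their order was not separable by counting error. At 1000 UMIs 40.0% of 65 microglia or macrophage-like nuclei had a Tcf7l2 UMI (28.0% to 52.9%). In these nuclei 0 of the 5 genes were at least 2-fold higher, against 15.7% of genes, and 1 (Axin2) at least 2-fold lower, against 28.7%.

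In dentate granule-like nuclei of the adult every TCF/LEF gene was at least 2-fold lower than in the other nuclei, and Axin2 was within 2-fold. Their 411 nuclei held 13 Tcf7l2, 7 Lef1, 4 Tcf7 and 1 Tcf7l1 UMIs out of 5398751. Axin2 had 86 UMIs, 15.9 CPM (12.7 to 19.7), found in 18.7% of nuclei, and pyramidal-like nuclei had it at 4.31 CPM (2.51 to 6.91). At 1000 UMIs the Axin2 share was 0.246% in dentate granule-like nuclei. Of the 5 genes, 0 were at least 2-fold higher, against 6.09% of genes, and 4 at least 2-fold lower, against 22.1%. Low TCF/LEF levels were not particular to this class. Pyramidal-like nuclei had Tcf7l2 at 1.52 CPM, Lef1 at 0.761 CPM, Tcf7 at 1.52 CPM and no Tcf7l1 UMI. For each of these genes the intervals of both classes overlapped.

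**Figure D5:**
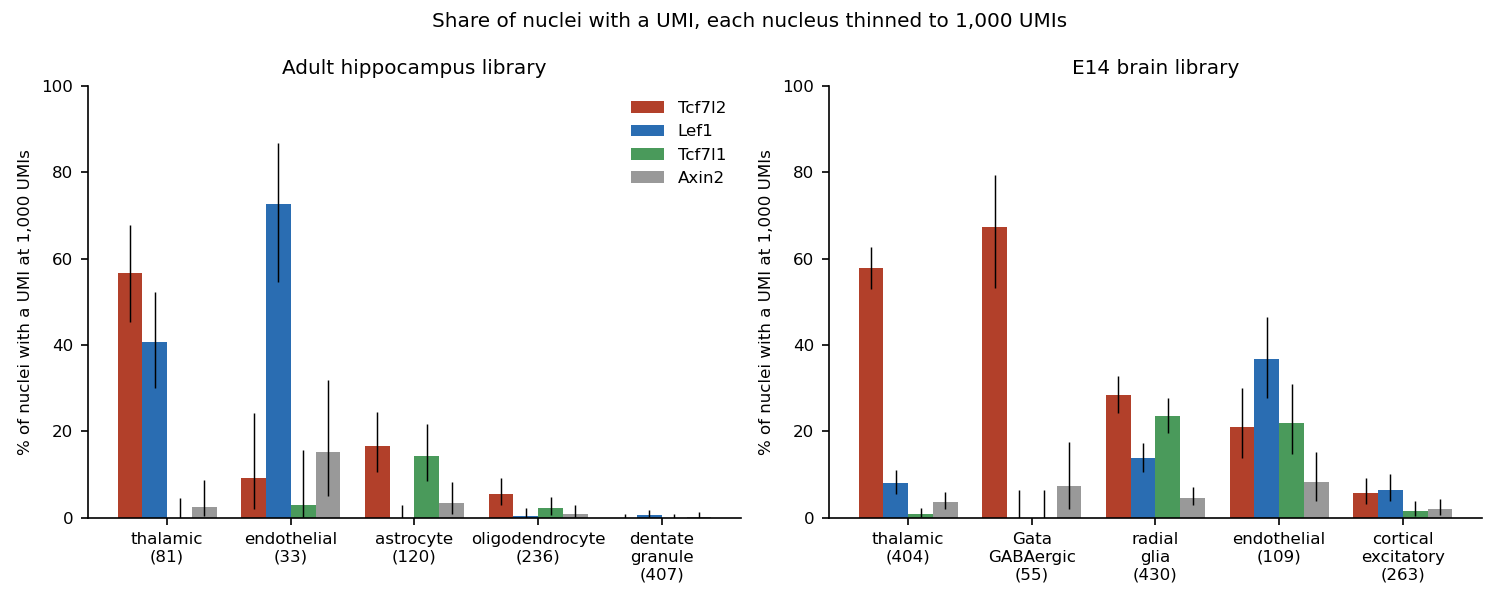
Share of nuclei with a UMI of Tcf7l2, Lef1, Tcf7l1 or Axin2 after thinning each nucleus to 1000 UMIs, in 5 adult classes (left) and 5 E14 classes (right), with exact binomial 95% intervals and nuclei in brackets. Lef1 reached 72.7% in adult endothelial and 40.7% in adult thalamic nuclei, against 7.92% in E14 thalamic nuclei.

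The genes whose pattern over classes was closest to each member were ranked by Pearson r of log2(CPM + 1) over the 8 adult or 11 E14 classes of at least 20 nuclei, points that share a library and differ in depth. In the adult, Tcf7l2 was closest to Igip (r = 0.96), Cnksr3 (0.94), March2 (0.91), Prkcd (0.90) and Phactr2 (0.89), of which Prkcd is itself a thalamic marker of the gate and Cnksr3 a newly formed oligodendrocyte marker. Lef1 was closest to Kitl (0.95), Ebf1 (0.93), Furin (0.92), Cyyr1 (0.91) and Adgrf5 (0.91), and Tcf7l1 to Gclm, C1d, Mlc1, Zhx3 and Sdha (0.95 to 0.96). Axin2 was closest to Strap, Sptbn1, Ndufa7, Swi5 and Psma5 (0.96 to 0.98). At E14 the 5 closest to Tcf7l2 were Ero1l, Haus8, Dcaf13, Tsfm and Zbtb45 (0.77 to 0.89), to Lef1 Fkbp2, Usp46, Cdk11b, Id1 and Armcx6 (0.87 to 0.92), to Tcf7 Grasp, Mbd1, Vcp, Pgm5 and Psmb1 (0.91 to 0.94), to Tcf7l1 Pard3bos1, Wwtr1, mt-Co1, Rexo5 and Melk (0.96 to 0.98), and to Axin2 Ptbp1, Chchd7, Gapdh, Gulp1 and Rab13 (0.89 to 0.96). Between members, Tcf7l2 and Lef1 had r = 0.75 over the adult and -0.21 over the E14 classes.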

How the data were processed

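Adult hippocampus and E14 brain were profiled, with 1 library each, and the values deposited by the authors are counts of UMIs per gene and nucleus barcode (10x Chromium v3.1). Per the file headers they came from Cell Ranger 6.1.2 (adult) and 7.0.1 (E14), on mm10 with intronic reads. The methods name CellBender, which removes ambient RNA, for the embryo, but the header is Cell Ranger's, so the E14 counts were treated as not corrected.

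Barcodes below 500 UMIs, or with 5% or more of their UMIs mitochondrial, were removed. Classes required 3 of the 8 markers of a list (10 for pyramidal neurons) and a lead of 2. Levels are summed UMIs per 1000000, with exact 95% Poisson, Clopper-Pearson or conditional ratio intervals (Python 3.11.15, SciPy 1.17.1). UMIs are molecules, but nuclei of a library share their source. Genes with at least 20 UMIs in a library were counted past 2-fold. Shares were compared after thinning to 1000 UMIs. Clusters came from Seurat 5.3.0 (R 4.3.3) without the 5 genes among the variable genes. Scrublet in scanpy 1.11.5 marked 6 adult and 1 E14 nuclei, too few to have worked, so no doublet was removed, and an alternative left out the 21 and 653 highest scores. The ratio code was tested on simulated data. Alternatives changed the UMI minimum, mitochondrial limit, gate, Malat1 share, clusters, doublets, gene minimum and thinning depth.

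The members and lists were chosen with earlier results of these data known. The genes named were the 5 members, per role and class the 3 pathway genes with the largest ratio past 2-fold, the 2 most abundant pathway genes per role, the 5 genes nearest to each member with at least 200 UMIs, and class markers. Splits by Malat1, Gbx2, Lmx1a, Agt or Slc6a11 and newly formed oligodendrocyte markers, and the feedback targets named where they were not higher, were chosen after seeing the data.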

Additional observations from a re-analysis of the deposited data

How the results depend on the processing

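The 24 results were recomputed with alternative settings, which gave 99 values that answer a comparison. Of these values 70 moved by less than their interval (for counts, by under 1.5 times), 28 moved further, and 1 ratio past 2-fold changed its sign. The sign of Lef1 in E14 thalamic nuclei, whose ratio was under 2-fold, changed too. With clusters in place of the gate, the log2 ratio of Tcf7l2 in adult oligodendrocyte nuclei turned from -1.28 to 0.81, and leaving out the 5 nuclei with newly formed markers, an alternative added after seeing the data, gave -1.03. Clusters also gave 4.57 for Tcf7l2 in adult and 3.15 in E14 thalamic nuclei, 0.43 for Lef1 in E14 thalamic and 2.49 in E14 endothelial nuclei, and 2.43 for Tcf7l1 in radial glia. The looser gate of 2 markers gave 1.83 for Tcf7l2 and -0.56 for Lef1 in E14 thalamic nuclei. Without the highest doublet scores Tcf7l2 in E14 thalamic nuclei was at 2.46, Lef1 in E14 endothelial nuclei at 2.95 and Tcf7l1 in radial glia at 2.40. A limit of 1% mitochondrial UMIs gave 1.33 for Tcf7l2 in adult astrocytes. The cause of these shifts was not tested.

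Genes at least 2-fold higher, counted from 100 UMIs up in place of 20, numbered 901 in adult thalamic, 1671 in astrocyte, 2550 in endothelial and 631 in dentate granule nuclei, and at E14 293 in thalamic, 649 in Gata GABAergic, 2117 in endothelial, 2248 in fibroblast, 1720 in choroid plexus, 774 in Cajal-Retzius, 367 in cortical excitatory and 1981 in microglia nuclei. From 1 UMI up they numbered 2889 in adult thalamic and 2359 in dentate granule nuclei, and 1856 in E14 thalamic, 3190 in radial glia and 1651 in cortical excitatory nuclei. Fewer or more genes were tested by construction, and their numbers are not given, so these counts cannot be set against the shares above. Of the thinned shares, 17 of the alternative values moved beyond their interval, upward with depth. No paired analysis was possible because each tissue had 1 library. With 1 library each, the spread between animals is unknown.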
